A study of Mus musculus with 2 samples.

Results

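The neuregulins and the ErbB receptors are 8 genes of the 32285 listed for these libraries, and they were taken by symbol: the ligand genes Nrg1, Nrg2, Nrg3 and Nrg4, and the receptor genes Egfr, Erbb2, Erbb3 and Erbb4. All 8 had at least 1 unique molecular identifier (UMI, a tag that counts each captured RNA molecule once) in both libraries, among 26542 genes detected in male and 27044 in female nuclei. The libraries are single-nucleus RNA-seq of the hippocampus of 3-month-old mice, 1 male and 1 female library, both of the genotype Stra8L/-; Nestin-Cre, in which Stra8 is deleted conditionally. Nestin-Cre drives recombination in neural progenitors, so neurons, astrocytes and the oligodendrocyte lineage descend from cells that expressed it, while microglia come from another lineage. No library of another genotype was analysed here, the number of animals per library was not given in the sources used here, and with 1 library per sex, the effects of sex, of the animals, of the dissection and of the library cannot be told apart.

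Neuregulins are membrane-bound or shed ligands with an epidermal growth factor (EGF)-like domain that binds ErbB3 or ErbB4. A bound receptor pairs with another ErbB receptor, and ErbB2, which binds no ligand of its own, is a frequent partner, while ErbB3 has little kinase activity and relies on its partner. In the forebrain, ErbB4 is known as the neuregulin receptor of GABAergic interneurons, where NRG1 acts on synapse formation onto and from parvalbumin cells, and NRG3 is a ligand of ErbB4. In the oligodendrocyte lineage ErbB3 and ErbB4 are the neuregulin receptors, and EGFR, which binds EGF and its relatives rather than neuregulins, is known from astrocytes and neural progenitors.

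The stretch that makes these genes ligands is the EGF-like domain, so its coding bases are shown for Nrg1, Nrg3 and Nrg4, as read from the GENCODE vM21 transcripts (build mm10), 5′ to 3′, from the first to the last of 6 cysteine codons, which are in capitals. They lie on the minus strand, at chr8:31837698-31849398 for Nrg1, chr14:38668261-39012054 for Nrg3 and chr9:55242177-55280969 for Nrg4, each over 2 coding exons.
Nrg1: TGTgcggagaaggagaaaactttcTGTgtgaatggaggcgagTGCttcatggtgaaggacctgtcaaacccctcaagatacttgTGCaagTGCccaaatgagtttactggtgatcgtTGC
Nrg3: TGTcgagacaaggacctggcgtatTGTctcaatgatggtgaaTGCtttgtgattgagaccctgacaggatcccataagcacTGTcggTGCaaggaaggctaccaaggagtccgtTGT
Nrg4: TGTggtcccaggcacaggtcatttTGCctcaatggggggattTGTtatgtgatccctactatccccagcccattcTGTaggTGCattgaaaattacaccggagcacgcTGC

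The domains were found with a cysteine pattern that fixed every gap but those between cysteines 2 and 3 and between cysteines 3 and 4. The fixed gaps were therefore bound to be the same in all 3. Of the gaps left free within limits, that between cysteines 2 and 3 had 5 codons in each. Between cysteines 3 and 4, Nrg1 has 13 codons, Nrg3 12 and Nrg4 10. Global alignment gave 56.9% identical bases between Nrg1 and Nrg3, 53.3% between Nrg1 and Nrg4 and 57.3% between Nrg3 and Nrg4. The genes that carry this short domain differ far more in size and in level. On mm10, Nrg1 spans chr8:31814551-32884029 on the minus strand, Nrg2 chr18:36017652-36197380 (minus), Nrg3 chr14:38368952-39473088 (minus), Nrg4 chr9:55220222-55326844 (minus), Egfr chr11:16752203-16918158 (plus), Erbb2 chr11:98412470-98437716 (plus), Erbb3 chr10:128567523-128589652 (minus) and Erbb4 chr1:68032186-69108059 (minus).

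Depth was 103262825 UMIs in 16174 barcodes for males and 108286856 UMIs in 20150 barcodes for females, with 101 barcode sequences present in both. After filtering, 13801 male nuclei with a median of 4320 UMIs and 17027 female nuclei with a median of 2669 remained. Clusters were named from markers, with the 8 genes left out of the clustering, so their own counts did not define the classes. Genes that overlap them on the other strand, such as Nrg3os and Egfros, were not left out. The 9 main classes, those that reached 200 nuclei in both libraries, were granule neurons (4027 male and 1750 female nuclei), CA1 pyramidal neurons (1992 and 1736), CA3 pyramidal neurons (901 and 806), subiculum or entorhinal excitatory neurons (1112 and 553), GABAergic interneurons (650 and 703), oligodendrocytes (2349 and 3582), oligodendrocyte precursors (359 and 493), astrocytes (1005 and 1485) and microglia or macrophages (791 and 705). Between 4 and 8 of the 8 markers of each of these classes stood over 2-fold above all other nuclei, with the fewest in CA1. CA2 neurons formed no class of their own here. At a finer clustering (Leiden resolution 2), a cluster of 224 male and 141 female nuclei was named CA2, and the CA3 class held 635 and 959. The CA3 class used below may thus include CA2 neurons. The libraries differed in make-up: 3 clusters that took no name held 457 male and 4647 female nuclei, and most oligodendrocytes came from one cluster in the male library (2248 of 2349) and from another in the female library (3423 of 3582). Stra8 itself had 2 UMIs in male and 4 in female nuclei. These are counts at the 3′ end, and the position of the deletion is not stated in the sources used here: they do not check the genotype.

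Levels below are CPM, a gene's share of all UMIs on the usual counts-per-million scale, summed over the nuclei of a class in 1 library, with exact Poisson 95% intervals. Rankings of classes are among the 9 main classes. With 1 library per sex there is no replicate, so no test was made, and intervals cover counting error only. Over all kept nuclei and per kilobase of gene span, Nrg3 was the highest of the 8 at 3.96 CPM per kb in male and 4.06 in female nuclei. Erbb4 stood at 0.593 and 0.827 CPM per kb, Nrg1 at 0.600 and 0.561, and Nrg2 at 0.771 and 0.575. Erbb3 (0.219 and 0.305), Egfr (0.114 and 0.161) and Nrg4 (0.066 and 0.043) were lower, and Erbb2 was lowest at 0.013 and 0.026. The spans run from 22.1 kb for Erbb3 to 1104 kb for Nrg3, and whether intronic reads were counted was not given in the sources used here.

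**Figure D1:**
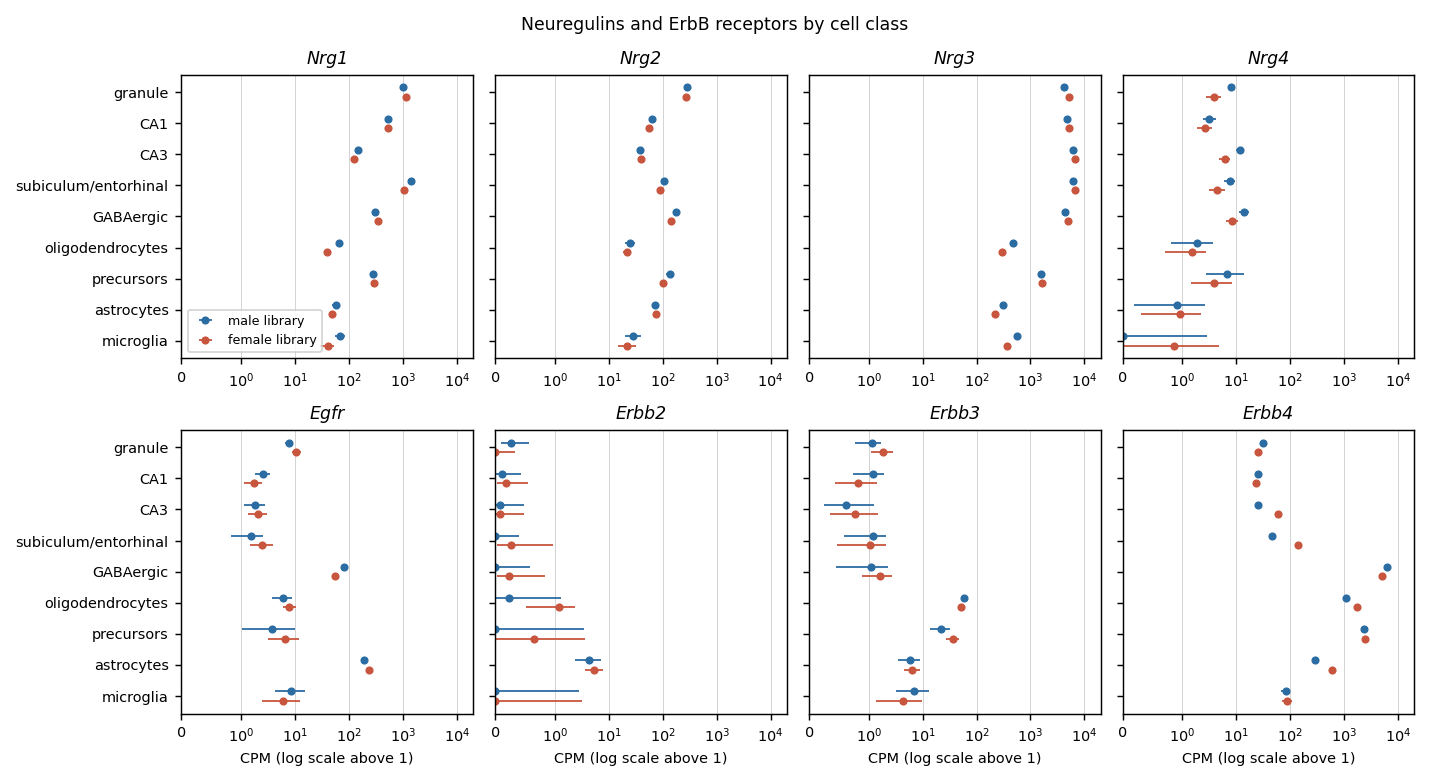
Level of each gene in the 9 main classes; the x axis is CPM on a log scale above 1 and linear below it, points are the male (blue) and the female (red) library, and bars are exact Poisson 95% intervals. Nrg1 and Nrg3 peak in excitatory neurons and Nrg2 in granule neurons, Erbb4 peaks in GABAergic interneurons (6216 and 5020 CPM), Egfr in astrocytes and Erbb3 in oligodendrocytes.

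Nrg1, known for its many splice forms, was highest in subiculum or entorhinal neurons and granule neurons. It stood at 1399 CPM (95% interval 1375 to 1423) in male and 1026 (1003 to 1050) in female nuclei in subiculum or entorhinal neurons. In granule neurons it stood at 992 (979 to 1005) and 1148 (1128 to 1169). Among the main classes these were the top 2 in both libraries, but in reverse order, the only one of the 8 genes whose leading class differed. Subiculum or entorhinal neurons came from 3 clusters in unequal numbers. The cluster led by Gm49906 and Tshz2 held 480 male and 49 female nuclei, with Nrg1 at 2143 and 3850 CPM. The cluster led by Vwc2l and Sntb1 (339 and 230 nuclei) had 2079 and 2053 CPM, and the cluster led by Gm42705 (293 and 274 nuclei) had 350 and 317. No cluster thus had a male excess as large as that of the whole class, and the order of the top 2 classes rests on which clusters make up the class. CA1 neurons followed at 519 and 527 CPM, GABAergic interneurons at 308 and 349, oligodendrocyte precursors at 278.9 and 286.7, and CA3 neurons at 145 and 126. CA3 neurons were thus the excitatory class with the least Nrg1. In oligodendrocytes, astrocytes and microglia Nrg1 lay between 39.2 and 68.7 CPM, where neighbours in the order had overlapping intervals.

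Nrg2, a neuregulin whose product also activates ErbB4, had its highest level in granule neurons, at 282 CPM (275 to 289) in male and 268.8 (259.1 to 278.7) in female nuclei. GABAergic interneurons came next at 174 (164 to 184) and 144 (136 to 152). The leading level was 1.62 times the next in male and 1.87 times in female nuclei. Oligodendrocyte precursors (137 and 102 CPM) and subiculum or entorhinal neurons (107 and 89.7) followed, with intervals that overlapped in the female library. Astrocytes, at 71.4 and 73.8 CPM, held more Nrg2 than CA3 neurons did, at 38.1 and 39.9.

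Nrg3, whose product binds ErbB4, was high in every neuronal class and varied little among them. CA3 neurons led at 6215 CPM (6169 to 6261) in male and 6852 (6804 to 6899) in female nuclei, and subiculum or entorhinal neurons followed at 6107 and 6618. CA1 neurons had 4864 and 5211, GABAergic interneurons 4459 and 5071, and granule neurons 4155 and 5116, the last pair overlapping in the female library. The lowest neuronal level was therefore within 1.5-fold of the highest in both libraries. Oligodendrocyte precursors had 1568 and 1674 CPM. Microglia, a lineage apart from neurons, still had 553 and 365 CPM, oligodendrocytes 470 and 301, and astrocytes 315 and 218. Nrg3 and Nrg1 were thus ordered differently across excitatory classes: CA3 neurons led for Nrg3 and came last for Nrg1.

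Neuronal RNA outside neurons was measured beside these glial values. The ratio of Nrg1 to Nrg3 was 0.124 in male and 0.110 in female microglia, against 0.147 and 0.134 over all kept nuclei, while among neuronal classes it ran from 0.0184 to 0.239. In astrocytes the ratio was 0.179 and 0.219. Rbfox1, a splicing regulator of neurons, stood at 582 CPM in male and 453 in female microglia, and at 472 and 307 in oligodendrocytes. After thinning each nucleus to 1000 UMIs, 41.1% of male and 27.7% of female microglia held an Nrg3 UMI, against 96.5% and 98.1% of granule neurons. The median depth of these microglia was 1541 UMIs in male and 1598 in female nuclei, and that of granule neurons 5064 and 5644. How far RNA freed from neurons set the glial Nrg1 and Nrg3 values was not tested.

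Nrg4, a short neuregulin known as a ligand of ErbB4 and an adipose hormone in mice, was scarce. It had 553 UMIs in all male and 403 in all female nuclei. GABAergic interneurons had the highest level at 13.9 CPM (11.1 to 17.2) in male and 8.38 (6.56 to 10.5) in female nuclei, and CA3 neurons came next at 11.6 and 6.10, with overlapping intervals. In microglia 0 UMIs were counted in the male library, which allows up to 2.31 CPM at 3 counts, and 1 in the female library. No main class reached 20 CPM in either library.

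Among the main classes, Egfr was highest in astrocytes, at 189 CPM (174 to 204) in male and 237 (224 to 251) in female nuclei. GABAergic interneurons were second at 81.4 (74.5 to 88.8) and 55.3 (50.4 to 60.5), so that astrocytes exceeded them 2.32-fold in male and 4.29-fold in female nuclei. All other main classes lay at or below 10.6 CPM, microglia at 8.49 and 5.96 among them. After thinning, 15.8% of male and 19.2% of female astrocytes held an Egfr UMI, against 1.06% and 0.467% of microglia. The median depth of astrocytes was 2805 and 3047 UMIs.

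Erbb2, the co-receptor without a ligand, was nearly absent from these counts. It had 25 UMIs in male and 58 in female nuclei, of which astrocytes held 14 and 28. Astrocytes stood at 4.22 CPM (2.31 to 7.08) and 5.34 (3.55 to 7.71), and no other main class passed 1.18 CPM. Microglia had 0 UMIs in both libraries, which allows up to 2.31 CPM in male and 2.56 in female nuclei at 3 counts. An Erbb2 level below that was not detectable in microglia at this depth.

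Erbb3 was highest in the oligodendrocyte lineage. Mature oligodendrocytes had 57.7 CPM (50.7 to 65.4) in male and 50.8 (45.6 to 56.5) in female nuclei, and precursors 21.9 (13.9 to 32.9) and 36.1 (27.3 to 46.9). The intervals of the 2 stages overlapped in the female library. All other main classes lay at or below 6.94 CPM. Oligodendrocytes were the leading class of 9.5% of the 11126 genes measured, in both libraries. Per kilobase of span, Erbb3 stood at 2.61 CPM per kb in male and 2.30 in female oligodendrocytes, above Erbb4 there at 1.02 and 1.63. In precursors Erbb3 stood at 0.989 and 1.63 CPM per kb and Erbb4 at 2.15 and 2.25. In CPM not divided by span, Erbb4 was the higher of the pair at both stages, so the order in oligodendrocytes rests on that division.

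Erbb4 showed the widest range of the family. GABAergic interneurons had 6216 CPM (6155 to 6278) in male and 5020 (4973 to 5068) in female nuclei. Oligodendrocyte precursors were second at 2318 (2227 to 2412) and 2420 (2343 to 2499), then oligodendrocytes at 1098 (1067 to 1130) and 1754 (1723 to 1786), and then astrocytes at 291 (272 to 309) and 593 (572 to 614). Excitatory classes lay between 23.1 and 137 CPM, and microglia at 81.8 and 86.9. The GABAergic level was 2.68 times that of precursors (95% interval 2.57 to 2.80) in male and 2.07 times (2.01 to 2.15) in female nuclei. From the lowest to the highest main class, Erbb4 spanned 7.70 on the log2(CPM + 5) scale in male and 7.48 in female nuclei, against medians of 1.58 and 1.66 over 11126 genes. After thinning to 1000 UMIs, 79.7% of male and 75.0% of female GABAergic nuclei held an Erbb4 UMI, against 7.81% and 8.41% of microglia, whose median depth is given above; that of GABAergic nuclei was 8293 and 8685 UMIs.

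The leading main class was the same in both libraries for 7 of 8 genes, and for 5 of the 6 that met the floor set for all genes (at least 100 UMIs, and 20 CPM in a class); the share over 11126 such genes was 71.9%. GABAergic interneurons led in both libraries for 5.06% of them, oligodendrocyte precursors for 5.45% and microglia for 26.9%. Nrg1, Nrg2 and Nrg3 thus peaked in other classes than the receptors did. Nrg4, which did not meet the floor, was highest in GABAergic interneurons, as Erbb4 was. Its interval there overlapped that of CA3 neurons in both libraries, so its leading class is not settled.

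The share of a gene's UMIs in a class depends on the number and depth of its nuclei as well as on its level. Excitatory neurons of the 4 main classes, 58.2% of male and 28.5% of female nuclei, held 92.1% of male and 57.0% of female Nrg1 UMIs. They held 89.0% and 68.1% of Nrg3 UMIs and 83.5% and 54.8% of Nrg2 UMIs. Clusters that took no name held another 32.3% of female Nrg1 UMIs, against 1.64% in the male library. GABAergic interneurons, 4.71% and 4.13% of nuclei, held 78.1% of male and 55.4% of female Erbb4 UMIs. Oligodendrocytes and precursors together held 14.3% and 20.1% of Erbb4 UMIs, and 71.2% and 67.9% of Erbb3 UMIs. Astrocytes held 42.3% and 53.2% of Egfr UMIs, and GABAergic interneurons 34.3% and 20.3%.

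**Figure D2:**
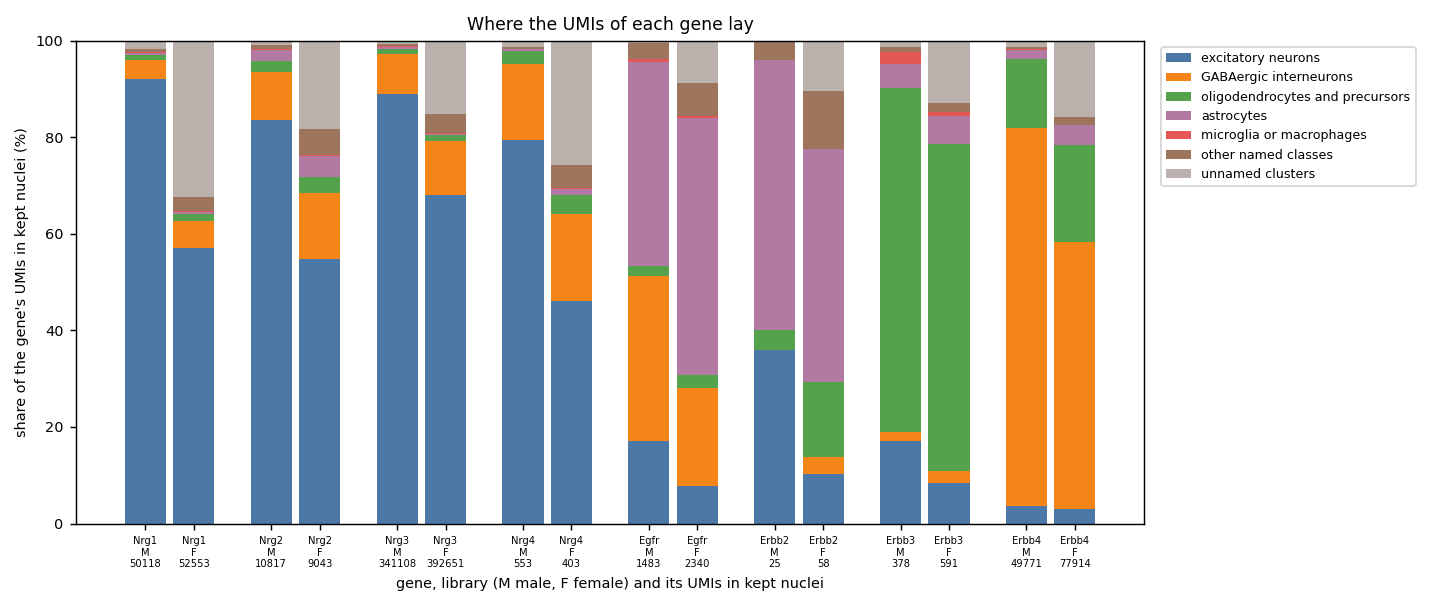
Share of each gene's UMIs (y axis, percent) that lay in each group of classes, 1 bar per gene and library, with the gene's UMIs in kept nuclei under the bar. Nrg1, Nrg2 and Nrg3 UMIs lie mostly in excitatory neurons, Erbb4 UMIs in GABAergic interneurons (78.1% male, 55.4% female), Erbb3 UMIs in the oligodendrocyte lineage, and unnamed clusters take up more of the female library.

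Among GABAergic nuclei clustered again without the 8 genes, Erbb4 ranked the named types in the same order in both libraries. Lamp5 interneurons, which include neurogliaform cells, had 12702 CPM (12458 to 12950) in male and 15254 (14963 to 15549) in female nuclei. Pvalb interneurons had 10291 (10127 to 10457) and 11277 (11077 to 11480), and Vip or Cck interneurons 5105 (4988 to 5224) and 5886 (5732 to 6044). Sst interneurons were lowest at 1133 (1075 to 1193) and 1698 (1614 to 1785), so that Lamp5 exceeded Sst 11.2-fold (10.6 to 11.9) in male and 8.98-fold (8.51 to 9.48) in female nuclei. After thinning, 100% of Lamp5 nuclei held an Erbb4 UMI in each library, against 38.8% of male and 43.5% of female Sst nuclei. Numbers were small: 106 male and 82 female Lamp5, 147 and 100 Pvalb, 169 and 98 Vip or Cck, and 147 and 92 Sst nuclei. The names rest on unequal support. Of the 8 markers of a type, 6 and 4 were over 2-fold in the Lamp5 clusters, and 3, 4 and 3 in the Pvalb clusters. They were 4 and 6 in the Sst clusters, and 3, 5 and 4 in the Vip or Cck clusters. No Pvalb cluster had a Pvalb marker among its 10 leading genes. The same held for 1 Sst cluster (led by Olfm3) and the Vip or Cck clusters led by Syt6 and by Col14a1. Sst nuclei were 22.6% of male and 13.1% of female GABAergic nuclei but held 3.64% and 3.57% of the class's Erbb4 UMIs.

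Erbb4 also varied among clusters of 1 type. In the Pvalb type the cluster led by Pdgfd and Cntnap5b reached 15903 CPM in male and 17991 in female nuclei, the highest Erbb4 level of any interneuron cluster in each. Among Vip or Cck clusters, the one led by Vip had 9154 and 10092 CPM and the one led by Syt6 and Rgs12 had 2729 and 3561. Of the Sst clusters, the one led by Sst itself had 812 and 329 CPM and the other, led by Olfm3 and Rtkn2, 1398 and 2943. These single-cluster values come from 18 to 77 nuclei per library.

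Egfr followed the same leading type. It stood at 325 CPM (287 to 367) in male and 255 (219 to 296) in female Lamp5 interneurons, above astrocytes in the male library and overlapping their interval in the female library. Vip or Cck interneurons had 79.5 and 77.9 CPM, Pvalb 31.5 and 56.9, and Sst 4.00 and 2.21, on 5 and 2 UMIs. Within Lamp5, the cluster led by Has2os, Kit and Ndnf (30 male and 24 female nuclei) had 718 and 555 CPM, and the other 181 and 175. The Vip or Cck cluster led by Vip (60 male and 44 female nuclei) had 269 and 252 CPM. That was above this other Lamp5 cluster, with overlapping intervals, so Egfr was not confined to the Lamp5 type. Hapln1, on the Lamp5 marker list, was also among the genes most like Egfr across classes, as described further on.

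Of the ligands, Nrg1 was highest among the named types in Lamp5 interneurons, at 571 CPM in male and 739 in female nuclei. It was lowest in Pvalb interneurons at 102 and 78.4, and the unnamed clusters together had 592 and 414. The Kit and Ndnf cluster of Lamp5 reached 1105 CPM (970 to 1254) in male and 2388 (2143 to 2655) in female nuclei. The female value was above the level of granule neurons in that library, while the male interval held the male granule level. The other Lamp5 cluster had 375 and 301 CPM, and the Vip or Cck cluster led by Vip 437 and 189. Nrg2 was 334 and 333 CPM in Lamp5 and 114 and 116 in Sst interneurons. Nrg3 ran the other way, lowest in Lamp5 interneurons at 3438 and 3720 CPM and between 4427 and 5115 in the other named types. Nrg4 was highest in Pvalb interneurons, at 28.1 CPM (20.2 to 38.1) and 12.1 (6.46 to 20.7), but its interval overlapped that of Sst interneurons, at 16.8 and 11.03 CPM, in both libraries.

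**Figure D3:**
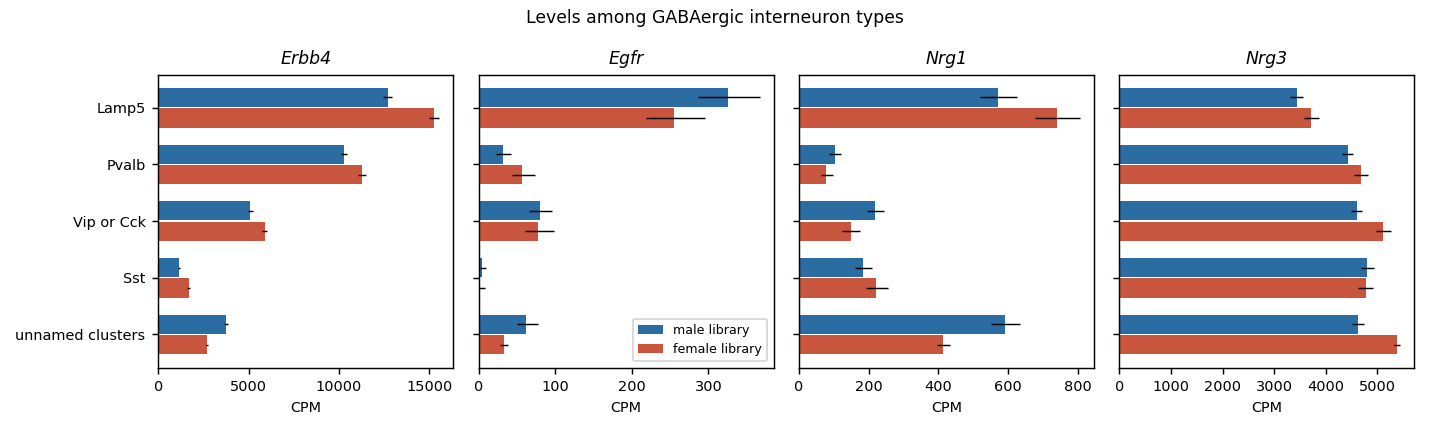
Levels of Erbb4, Egfr, Nrg1 and Nrg3 (x axes, CPM from 0) in the 4 named interneuron types and the unnamed interneuron clusters, with exact Poisson 95% intervals; blue is the male and red the female library. Erbb4 falls from Lamp5 to Sst in both libraries, Egfr is highest in Lamp5, and Nrg3 is lowest there.

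Unnamed interneuron clusters weighed on the class as a whole. They held 81 male nuclei (12.5% of the class) and 331 female nuclei (47.1%), with Erbb4 at 3744 and 2711 CPM. Of these clusters, the one led by Tafa1 and Hs3st4 had no marker of the 4 types over 2-fold, and another was led by Bcas1, Mbp and Mobp, genes of oligodendrocytes. Without them, Erbb4 in the class was 6876 CPM in male and 8221 in female nuclei, and the log2 ratio of male over female went from 0.31 to -0.26. It was also below 0 in each named type: -0.26 in Lamp5, -0.13 in Pvalb, -0.21 in Vip or Cck and -0.58 in Sst interneurons.

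The comparison between the libraries is described by log2((male CPM + 5)/(female CPM + 5)) with an exact conditional binomial 95% interval. Pairs of gene and class with at least 50 UMIs over both libraries and 20 CPM in either were counted as measured, which 40 of 72 pairs were. Of these 40, 9 were past 1.5-fold, against 9.18% of 67536 pairs over all genes. The 4 pairs higher in the male library were all ligand pairs in glia, and the 5 higher in the female library were all receptor pairs. The median log2 ratio was 0.15 over 27 ligand pairs and -0.08 over 13 receptor pairs, against medians from 0.06 to 0.13 over all genes in the 9 classes. The share called among all genes was 6.51% in granule neurons, 5.56% in CA1 neurons and 6.31% in GABAergic interneurons, where none of the 8 was called. Pairs in 1 class share its nuclei and are not independent.

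**Figure D4:**
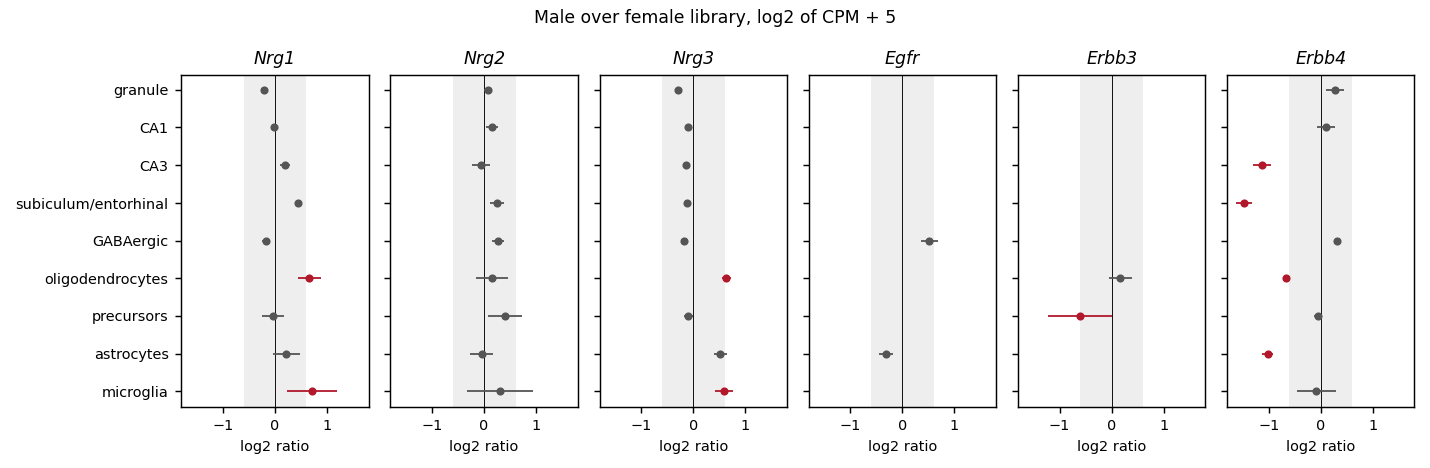
Log2 ratio of male over female library (x axes, CPM + 5) for each measured pair of gene and class, with exact conditional binomial 95% intervals; the grey band is within 1.5-fold and red points lie outside it. Erbb4 is higher in the female library in CA3, subiculum or entorhinal, oligodendrocyte and astrocyte nuclei, and close to equal in precursors; Nrg4 and Erbb2 had no measured pair.

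Nrg1 and Nrg3 were higher in the male library in oligodendrocytes and microglia. In oligodendrocytes Nrg1 stood at 64.9 CPM in male and 39.2 in female nuclei, a log2 ratio of 0.66 (0.44 to 0.89), and Nrg3 at 0.64 (0.55 to 0.72), where 9.56% of all genes measured were called higher in the male library. In microglia the ratios were 0.71 (0.23 to 1.19) for Nrg1 and 0.59 (0.42 to 0.77) for Nrg3, where 9.94% of genes were. Rbfox1 moved alongside, as given above, and so did the neuronal gene Snap25, at 487 CPM in male and 280 in female oligodendrocytes and 476 and 315 in microglia. In neurons, where both ligands are high, no pair was past 1.5-fold, the largest being Nrg1 in subiculum or entorhinal neurons at 0.44 (0.40 to 0.49). By the clusters given above, that ratio was 0.14 (0.03 to 0.25) in the one led by Gm42705, 0.02 (-0.04 to 0.08) in the one led by Vwc2l and below 0 in the one led by Gm49906. In oligodendrocytes the libraries were also drawn from different clusters. Within the mostly male cluster the ratios were 0.58 (-0.18 to 1.42) for Nrg1, on 12 female UMIs, and 0.40 (0.11 to 0.70) for Nrg3. Within the mostly female cluster they were -0.0052 (-1.03 to 0.91) for Nrg1, on 8 male UMIs, and 0.36 (0.02 to 0.68) for Nrg3. None of these 4 values was past 1.5-fold. With doublets kept in, the microglial ratios turned to -0.26 for Nrg1 and -0.24 for Nrg3.

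Erbb4 was higher in the female library in 4 classes. In astrocytes, at the levels given above, the log2 ratio was -1.02 (-1.12 to -0.91), where 3.24% of genes were called higher in the female library. It held in both astrocyte clusters, at -0.96 in the larger (269 CPM male, 529 female) and -0.87 in the smaller (512 and 938), where 39.0% of the barcodes had been called doublets before these were removed. Nuclei with at least 10 Erbb4 UMIs were 2 of 1005 male and 68 of 1485 female astrocytes, and in the rest Erbb4 stood at 278 and 438 CPM. Because this split used Erbb4 itself, the level of the rest was bound to be lower. The summed level of 8 oligodendrocyte markers in astrocytes was 2920 CPM in male and 3816 in female nuclei, with none at 0, and its part in the Erbb4 difference was not tested. In oligodendrocytes the ratio was -0.67 (-0.72 to -0.62), where 2.75% of genes were called higher in the female library. Within the mostly male oligodendrocyte cluster it was -0.06 (-0.22 to 0.11), with 1083 CPM in male and 1126 in female nuclei, and within the mostly female cluster -0.35 (-0.52 to -0.18), with 1395 and 1781. The class difference in oligodendrocytes was therefore larger than that within either of its clusters. In precursors Erbb4 did not differ beyond counting error, at -0.06 (-0.14 to 0.01).

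In subiculum or entorhinal neurons and in CA3 neurons, but not in CA1 or granule neurons, few nuclei held much of the female Erbb4. In subiculum or entorhinal neurons Erbb4 stood at 46.3 CPM in male and 137 in female nuclei, a ratio of -1.47 (-1.63 to -1.32), where 2.02% of genes were called higher in the female library. Of the female UMIs there, 64.2% were in 17 nuclei with at least 10 Erbb4 UMIs, of 553, and 4 of 1112 male nuclei reached that number. The summed CPM of 8 GABAergic markers was 1297 in those 17 nuclei and 235 in the rest. In the nuclei below 10 Erbb4 UMIs, Erbb4 stood at 36.8 CPM in males and 52.5 in females. Here and in CA3 neurons below, that split used Erbb4 itself, so the level of the rest was bound to be lower. The split also depends on depth, at a median of 6820.5 UMIs in male and 9840 in female nuclei of this class. The Erbb4 difference in the class lay in the cluster led by Gm42705, Gm6260 and Fn1, at 37.6 and 184 CPM, and without that cluster the ratio was 0.17. In CA3 neurons Erbb4 stood at 24.8 and 60.3 CPM, a ratio of -1.13 (-1.30 to -0.96), where 0.808% of genes were called higher in the female library. There the larger cluster had 19.6 CPM in male and 25.6 in female nuclei, a ratio of -0.32 (-0.56 to -0.07), within 1.5-fold. The smaller cluster, led by Gm32647 and Csf2rb2, had 50.3 and 125 CPM, a ratio of -1.24 (-1.53 to -0.94). It was named from 6 CA3 markers over 2-fold, but Csf2rb2 is on the marker list of mossy cells. Of its 206 female nuclei, 13 held 42.1% of its Erbb4 UMIs, with the GABAergic markers at 139 CPM in them and 89.0 in the rest. Over all CA3 nuclei below 10 Erbb4 UMIs, Erbb4 stood at 23.98 and 40.89 CPM. Of the barcodes of the smaller cluster, 21.7% had been called doublets before these were removed. The summed level of 8 oligodendrocyte markers was 474 CPM in male and 669 in female subiculum or entorhinal neurons. It was 389 and 634 CPM in CA3 neurons. In granule neurons it was 959 and 1257 CPM, with Erbb4 at 31.3 and 25.2. The part of doublets, misplaced nuclei or oligodendrocyte RNA in these values was not tested.

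Erbb3 in oligodendrocyte precursors was the remaining pair past 1.5-fold, on 23 male and 56 female UMIs. Its log2 ratio was -0.61 (-1.23 to 0.00), where 4.31% of genes were called higher in the female library, and its interval reached 0. Egfr differed by 0.52 (0.35 to 0.69) in GABAergic interneurons and -0.32 (-0.46 to -0.18) in astrocytes, both within 1.5-fold. Without the unnamed interneuron clusters the former was 0.00.

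Other genes of the pathway were described from 5 lists of 51 genes in all, of which 40 were measured in at least 1 class. Over 307 measured pairs of gene and class, 18 were past 1.5-fold higher in male and 8 higher in female nuclei, 8.47% of the pairs, against 9.18% of pairs over all genes. Of the 40 genes, 34 had the same leading class in both libraries: microglia, which led for 26.9% of all genes, for 11, oligodendrocytes for 9, oligodendrocyte precursors for 6, astrocytes for 4, GABAergic interneurons for 2, and granule and CA3 neurons for 1 each.

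Of 9 other EGF-family ligands, 3 were measured, and 6 of their 23 pairs (26.1%, against that 9.18%) were higher in male and 0 in female nuclei. Cspg5, a brain proteoglycan with an EGF-like domain, accounted for 4 of the 6 and led in precursors at 614 CPM in male and 483 in female nuclei. Tgfa, a ligand of EGFR, led in precursors at 143 and 98.6 CPM, and Tmeff1, a membrane protein with an EGF-like domain, in oligodendrocytes at 275 and 399. The other 6, which are Egf, Hbegf, Areg, Ereg, Epgn and Btc, all ligands of EGFR, did not reach 20 CPM in any main class. Of 9 ligand-cleaving proteases, 5 were measured, with 1 of 40 pairs (2.5%) higher in male and 0 in female nuclei. Bace1, a protease known to cut NRG1, led in oligodendrocytes at 63.1 and 54.1 CPM and was the 1 called, in microglia at 57.9 and 32.4. Adam10 and Adam17, which shed EGF-family ligands, led in microglia at 288 and 410 CPM and at 143 and 167.

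Of 14 adaptors and kinases, 13 were measured, with 8 of 105 pairs higher in male and 1 in female nuclei (8.57% together). Pik3r1, a regulatory subunit of PI3-kinase, was that 1, at 414 CPM in male and 810 in female microglia, where it led. Pik3r3, another such subunit, led in precursors at 143 CPM in male and 79.9 in female nuclei, where it was past 1.5-fold. Ptk2, the focal adhesion kinase, stood at 441 and 537 CPM in oligodendrocytes. All 7 scaffolds were measured, with 1 of 56 pairs higher in male and 2 in female nuclei (5.36% together). Magi2, a synaptic scaffold, led in oligodendrocytes at 5031 and 6664 CPM, and Erbin, named for its binding of ErbB2, there at 814 and 1017. The 2 female-higher pairs were Erbin in CA3 neurons, at 14.3 and 31.4 CPM, and Magi2 in subiculum or entorhinal neurons, at 2195 and 3534. The oligodendrocyte markers were also higher in the female library in both classes, as given above. The part of oligodendrocyte RNA in these 2 values was not tested. Ptprz1, a receptor phosphatase that interacts with ErbB4 through a scaffold, led in precursors at 2170 and 2389 CPM.

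All 12 genes of feedback and breakdown were measured, with 2 of 83 pairs higher in male and 5 in female nuclei (8.43% together). Errfi1, whose product inhibits EGFR and other ErbB kinases, accounted for 4 of these 5. It stood at 69.4 CPM in male and 156 in female oligodendrocytes, where it led, at 34.3 and 85.04 in precursors, at 20.5 and 48.1 in GABAergic interneurons, and at 21.1 and 39.5 in astrocytes. Lrig1, a membrane protein that lowers ErbB receptor levels, was the other one, at 67.2 and 130 CPM in astrocytes. Nedd4, a ubiquitin ligase that acts on ErbB4, was higher in the male library in microglia, at 183 and 92.9 CPM.

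The genes most like each member over the 10 named classes that reached 50 nuclei in both libraries were taken by Pearson's r of log2(CPM + 5), averaged over both libraries, among 11222 genes. Classes share libraries and depth, so r is a description. Erbb4 was most like Afap1 (r = 0.972), Sox2ot (0.958) and Exoc1 (0.947). Egfr was most like Egfros (0.974), Hapln1 (0.935) and A830019P07Rik (0.931), and Erbb3 like Plxnb3 (0.991), Ugt8a (0.987) and Gm10863 (0.984). Nrg3 was most like Nrg3os (0.996), Kcnb2 (0.994) and Rbfox1 (0.994). Nrg1 was most like Gm28307 (0.958), Nrg2 like Negr1 (0.930) and Nrg4 like Gm28198 (0.972). Between members, Nrg1 and Nrg3 had r = 0.827, while Nrg3 and Erbb4 had -0.336 and Nrg1 and Erbb4 -0.294.

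Some of these genes overlap the family on the other strand: Nrg3os (100647 UMIs), Gm20642 (73023) and Gm20641 (2915) lie across Nrg3, Egfros (803) across Egfr, 4930471G03Rik (680) across Nrg2, Fbxo22 (2467) across Nrg4 and Mien1 (2485) across Erbb2. Whether strand was used in counting is not stated in the sources used here, and whether such pairs shared reads was not tested. The likeness of Nrg3 with Nrg3os and of Egfr with Egfros, and the low counts of Erbb2 and Nrg4, are to be read with that limit.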

How the data were processed

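Nuclei of 1 male and 1 female library were profiled by 3′ droplet sequencing. The deposited matrices hold unnormalized UMI counts, made by the authors with Cell Ranger 7.0.1 on mm10, per the file headers and the submitters' processing notes. Whether the matrices had doublets removed before deposit is not given in the sources used here. Members and gene lists were chosen with earlier results of these data known.

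Barcodes under 500 genes or over 5% mitochondrial UMIs were dropped, which left 16034 male and 19251 female. Scrublet called 9.57% of male barcodes doublets by its automatic threshold. That threshold called 0% of female barcodes, so the top-scoring 7.51% were called there, and 6 of 33 clusters rich in calls were removed. Clustering (scanpy 1.11.5, Python 3.11.15) used 3000 variable genes, 40 principal components, 15 neighbours and Leiden resolution 1, leaving out the 8 members. Class names were rebuilt from marker lists, and a difference from the study's own classes may come from that. UMIs were summed per class and library, and 5 CPM were added for log2 ratios. Genes named outside the 8 were, per list, those of the largest ratio and the highest class level among genes with 100 UMIs and 20 CPM, and the 3 genes most like each member. The steps were tested on simulated data. Alternatives and their effect are in the closing section.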

Additional observations from a re-analysis of the deposited data

Results flagged for a closer look

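A cluster that took no name, led by Ebf1, Ebf2 and Pld5 and lying outside all comparisons, held 37 male and 804 female nuclei. Its Nrg1 level was 1790 CPM in the female library, above that of every named class there, and 2085 CPM in the male library. Its Nrg4 level was 11.3 CPM in the female library, also above every named class there, and 16.3 CPM in the male library. Both levels stood out as signals in nuclei that no comparison used, and they were not tested.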

How the results depend on the processing

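Depth and design limit these results: 1 library per sex gives no replicate error, and the scarce genes Erbb2 and Nrg4 rest on few UMIs. No paired analysis was possible because each group has 1 library. The alternative that keeps doublets was not run for the interneuron clusters. Alternatives by cluster, and without the unnamed interneuron clusters, were chosen after seeing the data.

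The GABAergic level of Erbb4 exceeded the next class under each alternative run. Against 2.68 in male and 2.07 in female nuclei, the ratio was 2.48 and 1.95 under a stricter filter of 1000 genes and 1% mitochondrial UMIs, and 3.92 and 3.02 with doublets kept. It was 3.14 and 1.59 at Leiden resolution 0.5, and 2.72 in the female library at resolution 2. It was 3.02 and 2.55 after thinning, 2.94 and 2.52 with the mean of per-nucleus CPM, and 2.97 and 3.40 without the unnamed interneuron clusters. After thinning, Erbb4 in female interneurons was 14390 CPM in Lamp5, 10690 in Pvalb, 6622 in Vip or Cck and 2872 in unnamed clusters. In male interneurons it was 9816 in Pvalb, 5757 in Vip or Cck and 4136 in unnamed clusters. The named types with values here kept their order. Thinned values of male Lamp5 and of Sst interneurons are not given here.

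Pairs past 1.5-fold numbered 9, and 5 with the mean of per-nucleus CPM. Of 600 alternative values of the 40 male over female ratios, 480 stayed within the interval of the main value. Many of these could not move. Dropping the minimum of UMIs and CPM changes no ratio, and alternatives on clusters of 1 class leave all other classes unchanged. After thinning 21 of 40 stayed, and under the stricter filter 24. Among the 600, the sign differed from the main one in 27, of which 4 were of ratios past 1.5-fold. GABAergic Erbb4 (-0.26) and Nrg2 (-0.06) were below 0 without the unnamed interneuron clusters, Erbb4 also at Leiden resolution 2 (-0.04). At Leiden resolution 0.5, the GABAergic ratios passed 1.5-fold for Erbb4 (0.94), Egfr (1.22) and Nrg1 (-1.33). With doublets kept, the microglial ratios were -0.26 for Nrg1 and -0.24 for Nrg3. In oligodendrocytes, Nrg1 was -0.0052 (-1.03 to 0.91, on 8 male UMIs) in the mostly female cluster, an interval that holds the main value of 0.66, and 0.58 in the mostly male one. Without the subiculum or entorhinal cluster led by Gm42705, Erbb4 was 0.17 and Nrg1 -0.19. The causes were not tested.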

Other observations

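The same unnamed cluster had Erbb4 at 1415 CPM in male and 1151 in female nuclei, and 251 of its 804 female nuclei held 86.8% of its Erbb4 UMIs. It held 25.9% of all female Nrg1 UMIs and 11.2% of female Erbb4 UMIs.

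Classes with few nuclei also held members of the family. Cajal-Retzius cells, the reelin-secreting neurons of the outer layer, had Nrg1 at 1355 CPM in male and 1317 in female nuclei. Fibroblasts or meningeal cells had Egfr at 146 and 244 CPM, and endothelial cells had Erbb4 at 113 and 528 CPM. Ependymal cells had Erbb4 at 276 CPM (119 to 544) on 8 UMIs of 5 male nuclei, and at 668 CPM in 80 female nuclei, of which 10 held 48.0% of the UMIs. Of 246 female endothelial nuclei, 10 held 57.0% of the class's Erbb4 UMIs.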
